A study of Homo sapiens with 9 samples.

Results

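The S100 genes encode small calcium-binding proteins of the EF-hand type, and 9 of them were followed here in the colorectal cancer cell line LIM1215 and 2 cetuximab-resistant populations derived from it. S100A2, S100A4, S100A6, S100A10, S100A11, S100A13, S100A14, S100A16 and S100P were taken by symbol from the count tables, which listed 58920 genes, 28824 of them with a count. All 9 passed the filter of 10 counts over the 9 libraries that 19102 genes passed. LIM1215 is an epithelial line whose growth depends on the epidermal growth factor receptor, the target of the antibody cetuximab. LIM1215-R1 and LIM1215-R2 were selected separately from it by raising the antibody's concentration over months, while LIM1215-parental cells were kept alongside without the drug. Both are mixed populations rather than single clones. Per the study's supplement, RNA was sequenced from cells in basal culture, without treatment. Each of the 3 lines has 3 libraries of poly(A) RNA, with 13737416 to 18725014 counts each. The study's supplement calls the replicates technical, so p-values here measure the spread between these libraries. Differences in culture or harvest cannot be told apart from differences between the lines.

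S100 proteins mostly act as dimers that change shape on binding calcium and then grip a target protein, such as an annexin or a myosin. Several are secreted and act on receptors at the cell surface. S100A10 differs in that it no longer binds calcium and sits in a stable complex with annexin A2, where it serves as a receptor for plasminogen. S100A4 and S100P are known for their link to motility and metastasis of carcinoma cells, and S100A6, S100A10, S100A11, S100A14 and S100A16 are widely expressed in epithelia.

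In the RefSeq annotation of GRCh38.p14, 8 of the 9 genes lie on the minus strand of chromosome 1, within 1651 kb between positions 151982915 and 153634361. S100A10 and S100A11 start the row, and the other 6 (S100A6, S100A4, S100A2, S100A16, S100A14 and S100A13, in this order) share 99.8 kb between positions 153534599 and 153634361. S100P stands alone on the plus strand of chromosome 4, at positions 6693878 to 6697170. S100A4 shares 65 bases with S100A5 on the same strand, which had 4 counts in all libraries together. S100A6 lies wholly within LOC124904423 on the opposite strand, which had 506 counts, and S100A13 overlaps S100A1 and CHTOP on the opposite strand. Reads were counted by strand. The 10 listed pseudogenes of S100A11 had 6 counts together, against 18878 for S100A11.

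RefSeq holds 13 start sites for the 9 genes, and the 250 bases before 5 of these starts are shown. They belong to S100A2, S100A4, S100A14 and S100P, which rose in both resistant lines, and to S100A10, which fell. S100A6 and S100A11 also rose in both lines, but their windows are not shown. Each window shown is written 5′ to 3′ along its gene, so that transcription starts after the last base. Capitals mark TATAAA, the core of the TATA box, or TGANTCA, the recognition letters of AP-1 factors. The windows are chr1:153565845-153566094 for S100A2, chr1:153545807-153546056 for S100A4, chr1:153616326-153616575 for S100A14, chr4:6693628-6693877 for S100P and chr1:151993860-151994109 for S100A10.
S100A2: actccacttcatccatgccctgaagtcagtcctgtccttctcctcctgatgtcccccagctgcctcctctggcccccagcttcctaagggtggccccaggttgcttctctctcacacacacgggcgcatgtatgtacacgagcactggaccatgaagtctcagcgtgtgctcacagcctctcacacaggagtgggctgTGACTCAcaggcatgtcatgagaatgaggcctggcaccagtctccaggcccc
S100A4: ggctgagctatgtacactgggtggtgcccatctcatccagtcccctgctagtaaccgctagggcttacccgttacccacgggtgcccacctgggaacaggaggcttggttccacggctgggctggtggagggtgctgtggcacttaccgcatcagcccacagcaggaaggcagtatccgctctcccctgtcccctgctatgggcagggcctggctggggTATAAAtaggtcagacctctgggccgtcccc
S100A14: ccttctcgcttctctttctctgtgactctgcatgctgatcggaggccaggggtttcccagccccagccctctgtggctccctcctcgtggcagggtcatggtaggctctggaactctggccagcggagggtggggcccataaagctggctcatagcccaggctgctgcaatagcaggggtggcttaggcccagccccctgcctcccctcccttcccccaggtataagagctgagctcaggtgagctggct
S100P: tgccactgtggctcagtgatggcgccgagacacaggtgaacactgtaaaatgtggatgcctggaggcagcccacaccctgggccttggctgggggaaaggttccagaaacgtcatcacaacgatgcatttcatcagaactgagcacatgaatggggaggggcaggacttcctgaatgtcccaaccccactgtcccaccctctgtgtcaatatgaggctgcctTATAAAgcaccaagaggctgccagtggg
S100A10: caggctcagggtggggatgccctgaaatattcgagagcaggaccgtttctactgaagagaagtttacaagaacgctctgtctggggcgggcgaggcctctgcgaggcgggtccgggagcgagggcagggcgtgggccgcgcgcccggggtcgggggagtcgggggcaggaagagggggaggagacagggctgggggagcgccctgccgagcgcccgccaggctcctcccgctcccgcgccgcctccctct

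TATAAA stood on the gene's own strand in 3 of the 13 windows, 28 bases before the start of S100P, 31 before that of S100A4 and 29 before the second start site of S100A13. These letters occur on either strand in 10.7% of all 35116 RefSeq windows of this length. TGANTCA, which reads the same on both strands, was found in 1 of the 13, the first start of S100A2, and in 6.57% of all windows. GGGCGG, the core of the GC box, was present on either strand in 5 of the 13, against 42.6% of all. None of these motifs overlapped in the windows shown. The windows of S100A10 and S100A6 were the richest in CG pairs among the members with 24 each. S100A2, S100A14 and S100P held 4 each at the starts shown, S100A4 held 7 and S100A11 held 15. Of the 2 richest, S100A10 fell and S100A6 rose in both resistant lines, as did S100A11. The median over all windows was 11. A match in letters is a description of the sequence and says nothing of use in these cells.

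Levels spanned a wide range and are compared between genes as CPM (counts scaled to a common library total, after TMM normalization) per kilobase of the GENCODE canonical transcript. S100A6, also known as calcyclin, was the highest S100 gene in every line, with 1769 CPM per kilobase in parental cells, 2434 in LIM1215-R1 and 2566 in LIM1215-R2. S100A10 came next with 785, 518 and 515 on the same scale. In parental cells S100A14 (250) and S100A16 (242) followed with overlapping ranges, then S100A11 (173), S100P (112) and S100A13 (73.8). S100A4 and S100A2 were the lowest, with 3.34 and 1.04 CPM per kilobase in parental cells.

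LIM1215-R2 kept the order of parental cells, and in LIM1215-R1 only S100P and S100A11 traded places, with overlapping ranges. In LIM1215-R1, S100A14 reached 491 CPM per kilobase, just under S100A10, and the ranges of S100A16 (314) and S100P (284) overlapped, as did those of S100P and S100A11 (268). In LIM1215-R2, no neighbours in the order overlapped, although the lowest S100A16 library (251) and the highest S100A11 library (250.2) lay close together. S100A4 rose from 3.34 CPM per kilobase in parental cells to 7.72 in LIM1215-R1 and 26.7 in LIM1215-R2 without changing its place in the order.

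**Figure D1:**
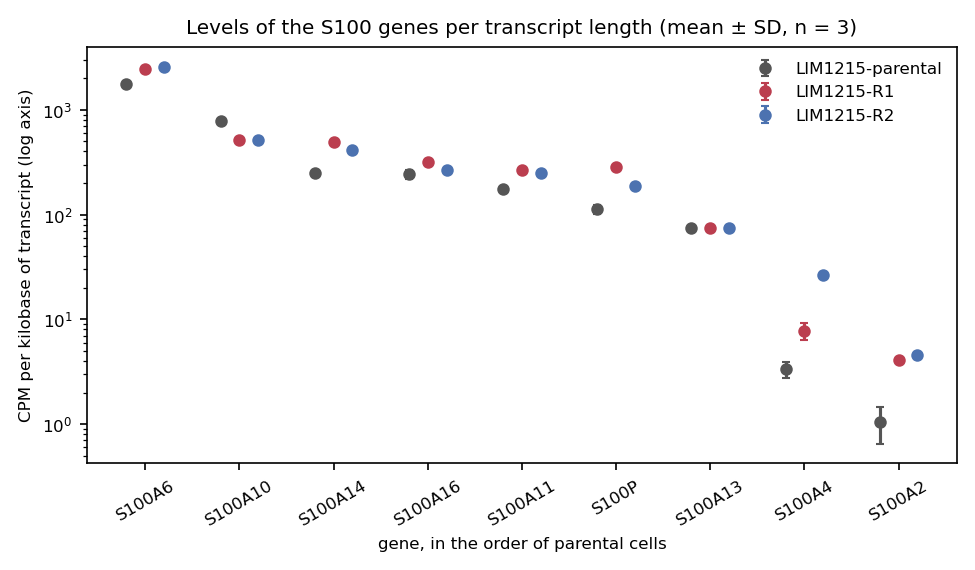
Mean level of each S100 gene in CPM per kilobase of transcript (vertical log axis) in the 3 lines, with the SD of 3 libraries as bars, in the order of the parental cells (horizontal axis). S100A6 is highest in every line, S100A13 stays near 74 in all lines, and S100A4 and S100A2 lie lowest.

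Most of the 9 S100 genes were raised in both resistant lines. These 9 were chosen with earlier results of these data known, so the counts below are descriptions. S100A9, which is not among the 9, was lower in both lines (log2 fold change -0.77 and -2.31). In LIM1215-R1, 7 of the 9 exceeded the parental level and 1 fell below it in edgeR's quasi-likelihood test, with 0.01 as the limit of the adjusted p, where 14.0% of all genes tested were higher and 13.4% lower. For LIM1215-R2 these numbers were 6 and 1, where 12.3% of all genes tested were higher and 11.6% lower. S100A2, S100A4, S100A6, S100A11, S100A14 and S100P were higher in both lines, S100A10 was lower in both, S100A16 was higher in LIM1215-R1 alone by this threshold, and S100A13 passed in neither. The 9 had a median log2 fold change of 0.63 (LIM1215-R1) and 0.54 (LIM1215-R2), beside -0.011 and -0.0037 over all genes tested. Ranges of the 3 libraries did not overlap with those of parental cells for 8 and 7 of the 9 genes, and for 44.0% and 42.8% of all genes tested. Both comparisons share the parental libraries and are not independent.

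Most of these differences were moderate. Differentially expressed genes (DEGs), which also needed a change of 1.5 or more on the log2 scale in either direction, made up 5.14% of the genes tested in LIM1215-R1 and 4.82% for LIM1215-R2. Among the 9 S100 genes, S100A2 met that threshold in LIM1215-R1, and S100A2 and S100A4 met it in LIM1215-R2. With DESeq2's shrunken fold changes S100A2 fell short in LIM1215-R1, which left 0 of the 9, and 2.06% of all genes tested met the threshold on that scale. With a log2 threshold of 1 it was met by 3 of the 9 in LIM1215-R1 and by 7.31% of all genes tested.

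Together the 9 genes took 2015 to 2049 CPM in parental libraries, 2592 to 2637 in LIM1215-R1 and 2464 to 2499 in LIM1215-R2. S100A6 and S100A14 contributed most of the added counts. The summed level of 9 epithelial marker genes moved in the same order, from 12385 to 12749 CPM in parental libraries to 16014 to 16301 in LIM1215-R1 and 14472 to 14885 in LIM1215-R2, and its part in the S100 results was not tested. The sum is carried by the keratin genes KRT8 (5717, 7884 and 7170 CPM in parental cells, LIM1215-R1 and LIM1215-R2) and KRT18 (4131, 5499 and 5008 CPM). Of these markers 8 had counts in every line and KRT20 was at 0. They were split in direction, with 4 higher and 3 lower in each resistant line and medians on the log2 scale of 0.13 and 0.068. KRT19 (log2 fold change 0.58 and 0.42), KRT8 (0.46 and 0.33), KRT18 (0.41 and 0.28) and VIL1 (0.40 and 0.26) were higher, while CDX2 (-0.44 and -0.54) and LGALS4 (-0.23 and -0.37) were among those lower. Marker lists of fibroblasts, leukocytes, endothelium, and melanocytes and glia summed to at most 2.18 CPM in any library, with PTPRC, PDGFRA, COL1A2 and MLANA at 0. In bulk RNA, a change in the number of cells that express a gene and a change in RNA per cell cannot be told apart.

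**Figure D2:**
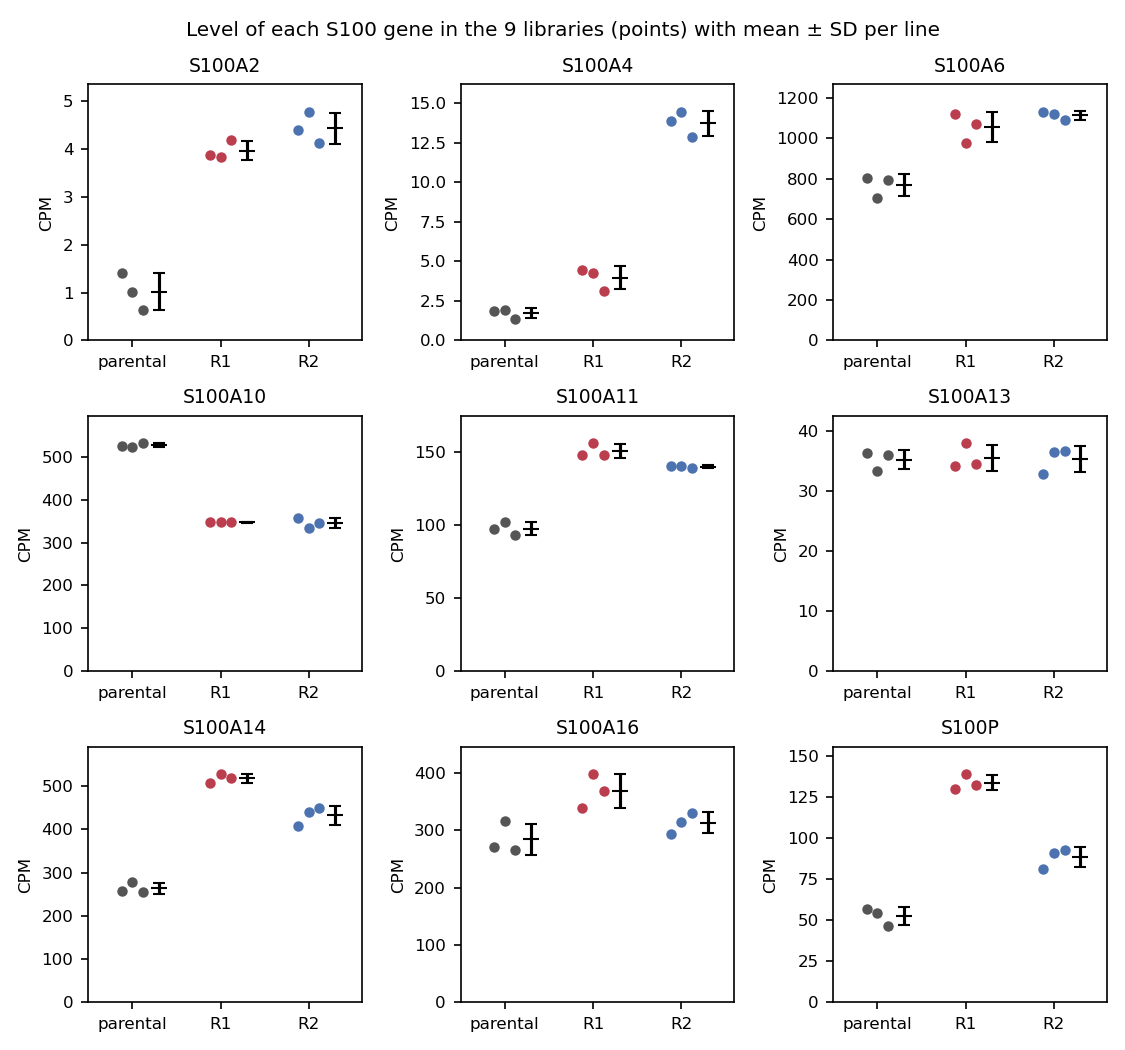
Level of each S100 gene in CPM (vertical axes, from 0, each panel with its own scale) in the 3 libraries of each line (points), with the mean ± SD beside them. S100A4 stands out in LIM1215-R2, S100A2 is raised alike in both resistant lines, S100A10 is the one gene of the 9 that fell, and S100A13 overlaps in all lines.

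S100A4, also called metastasin, binds nonmuscle myosin IIA. It was at 1.83, 1.95 and 1.37 CPM in the parental libraries, 4.48, 4.27 and 3.13 in LIM1215-R1 and 13.9, 14.4 and 12.9 in LIM1215-R2. The 3 lines did not overlap, and every LIM1215-R2 library exceeded every LIM1215-R1 library. The log2 fold change was 1.22 (SE 0.199, adjusted p = 1.5e-05) in LIM1215-R1 and 3.02 (SE 0.165, adjusted p = 2.28e-14) in LIM1215-R2, which are 2.34-fold and 8.09-fold. Parental libraries held 26 to 31 counts of it.

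S100A2, found mainly in the nucleus, was at 1.42, 1.01 and 0.630 CPM in parental cells. LIM1215-R1 libraries had 3.86, 3.83 and 4.19 CPM and LIM1215-R2 libraries 4.40, 4.77 and 4.12. Both resistant lines lay above every parental library and overlapped with each other. The log2 fold change was 1.97 (SE 0.236, adjusted p = 1.32e-07) in LIM1215-R1 and 2.13 (SE 0.232, adjusted p = 2.39e-08) in LIM1215-R2. These rest on 12 to 24 counts in each parental library.

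S100P, a secreted and cytoplasmic protein that binds ezrin, was at 56.9, 54.5 and 46.8 CPM in parental libraries. It was highest in LIM1215-R1, at 130.2, 139 and 132 CPM, and intermediate in LIM1215-R2, at 81.3, 91.1 and 92.6. No line overlapped another. The log2 fold change was 1.35 (SE 0.0663, adjusted p = 2.33e-15) and 0.75 (SE 0.0675, adjusted p = 6.98e-10).

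S100A14, an epithelial S100 protein, followed the same order. Parental libraries had 258, 277 and 255 CPM, LIM1215-R1 libraries 508, 528 and 518, and LIM1215-R2 libraries 408, 440.4 and 449.9. Again no line overlapped another. Its log2 fold change was 0.98 (SE 0.0451, adjusted p = 6.31e-16) in LIM1215-R1 and 0.72 (SE 0.0451, adjusted p = 4.44e-13) in LIM1215-R2.

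S100A11, a partner of annexin A1, was at 97.5, 102 and 93.1 CPM in parental cells, 148, 156 and 148 in LIM1215-R1 and 141, 140.3 and 139 in LIM1215-R2. Resistant libraries all exceeded parental ones, by 1.55-fold (log2 0.63, SE 0.0504, adjusted p = 6.13e-11) and 1.44-fold (log2 0.52, SE 0.0505, adjusted p = 2.65e-09). S100A6 had 801, 706 and 796 CPM in parental cells. It reached 1123, 978 and 1069 in LIM1215-R1 and 1131, 1121 and 1089 in LIM1215-R2, so that both lines lay above the parental range. Its log2 fold change was 0.46 (SE 0.0472, adjusted p = 8.08e-09) and 0.54 (SE 0.0473, adjusted p = 4.37e-10).

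S100A10 was the one member that fell. Parental libraries had 525, 523 and 532 CPM, LIM1215-R1 libraries 347, 347 and 348, and LIM1215-R2 libraries 358, 334 and 345. The fall was to 0.660 and 0.656 of the parental level, with log2 fold changes of -0.60 (SE 0.0399, adjusted p = 1.41e-12) and -0.61 (SE 0.0399, adjusted p = 1.07e-12). The resistant lines overlapped with each other and lay far below every parental library. S100A6 and S100A10, the most abundant pair, therefore diverged, and the ratio of their counts within a library went from 1.46 ± 0.0955 (SD, n = 3) in parental cells to 3.04 ± 0.209 and 3.22 ± 0.116.

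S100A13, which takes part in the release of fibroblast growth factor 1, was nearly level. It had 36.2, 33.4 and 35.9 CPM in parental cells, 34.1, 38.0 and 34.4 in LIM1215-R1 and 32.9, 36.5 and 36.7 in LIM1215-R2, with overlap throughout. Its log2 fold change was 0.010 in LIM1215-R1 (95% confidence interval -0.14 to 0.16) and 0.0048 in LIM1215-R2 (-0.14 to 0.15).

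S100A16, another epithelial member, gave the least firm result. Its parental libraries had 270.4, 315 and 266 CPM, its LIM1215-R1 libraries 339, 398 and 369, and its LIM1215-R2 libraries 294, 315 and 330.3. LIM1215-R1 lay above the parental range, whereas LIM1215-R2 overlapped with it. The log2 fold change was 0.38 (SE 0.0598, adjusted p = 1.09e-05) in LIM1215-R1 and 0.14 (SE 0.0599, adjusted p = 0.0744) in LIM1215-R2. Without parental replicate 2, the highest of its line, the difference in LIM1215-R2 became 0.22 with an adjusted p of 0.00165.

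**Figure D3:**
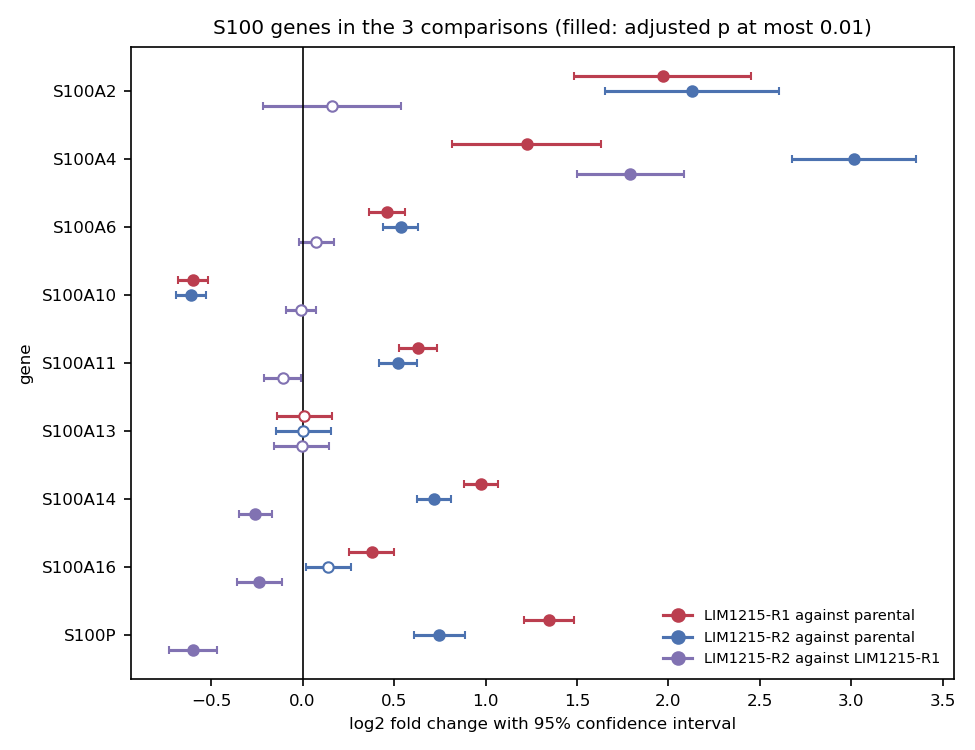
Log2 fold change of each S100 gene (horizontal axis) with its 95% confidence interval in the 3 comparisons, filled where the adjusted p was at most 0.01. Intervals of S100A4 in LIM1215-R1 and LIM1215-R2 lie apart at 1.22 and 3.02, those of S100A10 lie together near -0.6, and those of S100A13 sit on 0.

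The resistant lines were also compared directly, since each was selected separately. In LIM1215-R2 against LIM1215-R1, 1 of the 9 S100 genes was higher and 3 were lower, where 3.39% and 3.77% of all genes tested were. S100A4 was higher in LIM1215-R2 by 1.79 on the log2 scale (SE 0.142, adjusted p = 5.42e-10), or 3.46-fold, and was the only member among the DEGs of this comparison, which made up 0.764% of the genes tested. S100P and S100A14 were lower in LIM1215-R2, with log2 differences of -0.60 (SE 0.0636, adjusted p = 1.14e-07) and -0.26 (SE 0.0444, adjusted p = 0.00016). The median of the 9 genes was -0.0075, beside -0.0011 over all genes tested.

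S100A16 was lower in LIM1215-R2 too, with a log2 difference of -0.24 (SE 0.0596, adjusted p = 0.00779). That call was lost without LIM1215-R1 replicate 2 (adjusted p = 0.051) or 3 (0.0399) and without LIM1215-R2 replicate 1 (0.0934) or 2 (0.0432). For the other 5 genes the test found no difference at this threshold, with intervals of -0.22 to 0.54 for S100A2, -0.02 to 0.17 for S100A6, -0.09 to 0.07 for S100A10, -0.21 to -0.01 for S100A11 and -0.16 to 0.14 for S100A13. The ranges of S100A11 did not overlap between the resistant lines although its adjusted p was 0.167.

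The other genes around the S100 genes were examined in the same fit. Within 300 kb of a member on chromosome 1, 54 genes outside the S100 family were listed and 16 tested. Only 9 of the 16 reached 1 CPM in a line. In edgeR's test 0 of these 16 were called in LIM1215-R1, where 14.0% of all genes were higher and 13.4% lower. There 5 of the 16 had an unadjusted p under 0.05, and DESeq2 also called 0. In LIM1215-R2, where 11.6% of all genes were lower, PGLYRP4, a peptidoglycan recognition protein gene, was the 1 call, at 1.18 ± 0.420 CPM in parental cells and 0.120 ± 0.157 (SD, n = 3) in LIM1215-R2 (log2 fold change -3.21, SE 0.574, adjusted p = 6.06e-05). Their median log2 fold change was 0.016 for LIM1215-R1 and 0.10 for LIM1215-R2. Of 9 tested genes around S100P, MAN2B2, a lysosomal mannosidase gene, was higher in LIM1215-R1 (log2 fold change 0.35, SE 0.0690, adjusted p = 0.000159), where 14.0% of all genes were. In LIM1215-R2 0 of these 9 were called, where 12.3% of all genes were higher and 11.6% lower. There 2 of the 9 had an unadjusted p under 0.05, and DESeq2 called 0.

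Adjacent S100 genes moved unequally. S100A10 fell and S100A11, 49.6 kb away, rose. In the row of 6, S100A13 (log2 fold change 0.010 in LIM1215-R1) lies next to S100A14 (0.98), and S100A4 (3.02 in LIM1215-R2) lies near S100A6 (0.54). LOC124904423, which covers S100A6 on the other strand, was at 2.82 ± 0.192 CPM in parental cells and 4.05 ± 0.697 in LIM1215-R1 (SD, n = 3; log2 fold change 0.52, adjusted p = 0.0383). S100A6 itself was at 768 and 1057 CPM in these lines, and whether its reads entered the count of LOC124904423 was not tested.

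**Figure D4:**
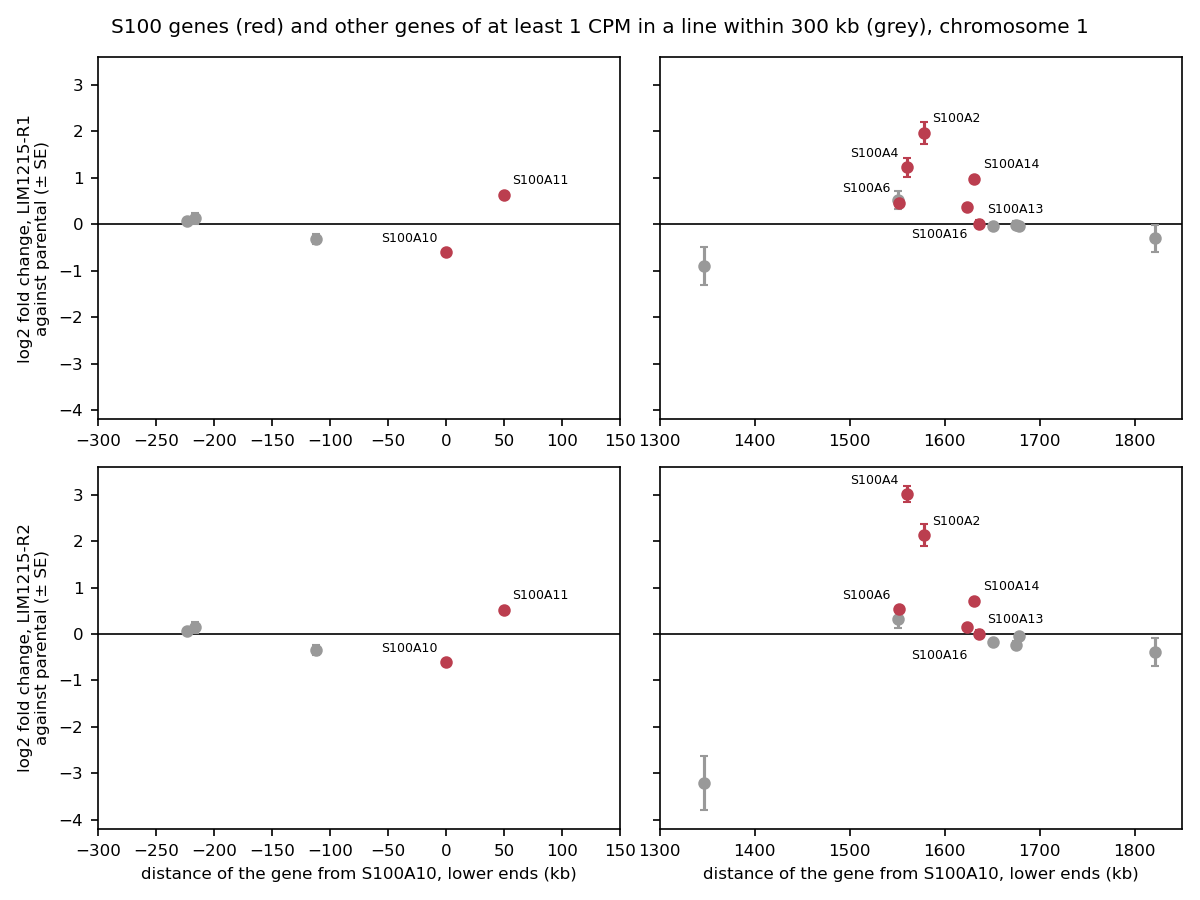
Log2 fold change against parental cells (vertical axes, bars are SE) of the S100 genes of chromosome 1 (red) and of the 9 other genes within 300 kb that reached 1 CPM in a line (grey), by distance from S100A10 (horizontal axes, kb, with the stretch between the left and right panels left out), for LIM1215-R1 above and LIM1215-R2 below. PGLYRP4 is the lowest grey point, at -3.21 in LIM1215-R2, the highest grey point is at 0.52, and S100A2 and S100A4 stand above 1 in both lines.

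A further 11 S100 genes were listed, of which 6 had a count and 4 were tested. S100A9, a subunit of calprotectin, went against most members and fell from 7.21 ± 0.743 CPM in parental cells to 4.23 ± 0.325 in LIM1215-R1 and 1.46 ± 0.365 in LIM1215-R2 (SD, n = 3). Its log2 fold change was -0.77 (adjusted p = 0.00022) and -2.31 (adjusted p = 8.53e-11), and -1.54 (adjusted p = 4.77e-06) between the resistant lines. S100A8, its usual partner, had 0 counts in all libraries, as did S100A7, S100A7A, S100B and S100G, at a depth where 3 counts are 0.158 to 0.217 CPM. S100A3, which lies among the 6 genes of the row, had 1 count in the parental libraries together, 32 in LIM1215-R1 and 21 in LIM1215-R2. Its ratio was 33.1 (exact 95% counting interval 5.52 to 1346) and 21.7 (3.49 to 896), and the adjusted p in edgeR's test was 5.25e-05 and 0.000745. S100Z had 28, 47 and 38 counts and was not called. S100A1 had 10 counts in all and was tested without a call, and S100A5 and S100A12 had 4 and 2. Of 7 genes of the fused S100 type, which build the cornified layer of skin, TCHH alone was tested and did not pass (adjusted p = 0.0682 in LIM1215-R1 and 0.743 in LIM1215-R2).

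Annexins are membrane-binding proteins that S100 dimers bridge. Of 5 annexin partners, 3 were higher in LIM1215-R1, and in LIM1215-R2 2 were higher and 2 lower. Over all genes tested, 14.0% were higher and 13.4% lower in LIM1215-R1, and 12.3% and 11.6% in LIM1215-R2. The median log2 fold change of the annexins was 0.16 and -0.10. ANXA1, the partner of S100A11, went from 17.6 ± 1.54 CPM to 90.5 ± 5.98 and 82.4 ± 3.16 (SD, n = 3; log2 fold change 2.35 and 2.22, adjusted p = 1.17e-19 and 3.74e-19). ANXA6 followed the order of S100A4, with 20.5 ± 1.07, 54.6 ± 1.32 and 86.7 ± 2.50 CPM, and its log2 difference between the resistant lines was 0.67 (LIM1215-R2 minus LIM1215-R1, adjusted p = 3.3e-09).

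ANXA2, which forms the complex with S100A10, moved little and in opposite directions, from 770.3 ± 19.4 CPM to 864 ± 16.8 in LIM1215-R1 (log2 0.16, adjusted p = 0.000628) and 695 ± 7.09 in LIM1215-R2 (log2 -0.15, adjusted p = 0.00203). The second call was lost without parental replicate 1 or LIM1215-R2 replicate 1 or 2, with an adjusted p of at most 0.0176. The ratio of S100A10 to ANXA2 counts within a library was 0.684 ± 0.0231 in parental cells, 0.402 ± 0.00788 in LIM1215-R1 and 0.497 ± 0.0202 in LIM1215-R2 (SD, n = 3), and no line overlapped another. The ratio of S100A11 to ANXA1 counts was 5.57 ± 0.691 in parental cells and 1.68 ± 0.162 and 1.70 ± 0.0644 in the resistant lines. ANXA11 was lower in LIM1215-R2 (log2 -0.23, adjusted p = 0.000426), and ANXA5 did not pass in any comparison.

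The plasminogen system, which S100A10 serves at the cell surface, was represented by 4 tested genes of 5. In each resistant line 2 were higher and 1 lower, beside 14.0% and 13.4% of all genes in LIM1215-R1 and 12.3% and 11.6% in LIM1215-R2, with a median log2 fold change of 0.94 and 0.95. PLAUR, the urokinase receptor, went from 6.40 ± 0.949 CPM to 18.3 ± 0.0294 and 17.1 ± 0.684 (log2 1.53 and 1.43, adjusted p = 7.6e-12 and 3.48e-11). SERPINE2, a protease inhibitor, was higher (log2 0.36 and 0.48, adjusted p = 1.85e-05 and 2.14e-07). PLAU, which encodes urokinase itself, was lower, at 25.2 ± 3.67 CPM in parental cells and 16.1 ± 1.47 and 15.8 ± 2.24 in the resistant lines (SD, n = 3; log2 -0.64 and -0.66, adjusted p = 2.66e-05 and 1.81e-05). PLAT, the tissue-type activator, was below 1 CPM in every line and did not pass, and PLG, which encodes plasminogen, had 0 counts. The median over the 4 genes includes PLAT, whose log2 fold changes of 3.33 and 3.43 rest on 1 count in the parental libraries together.

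**Figure D5:**
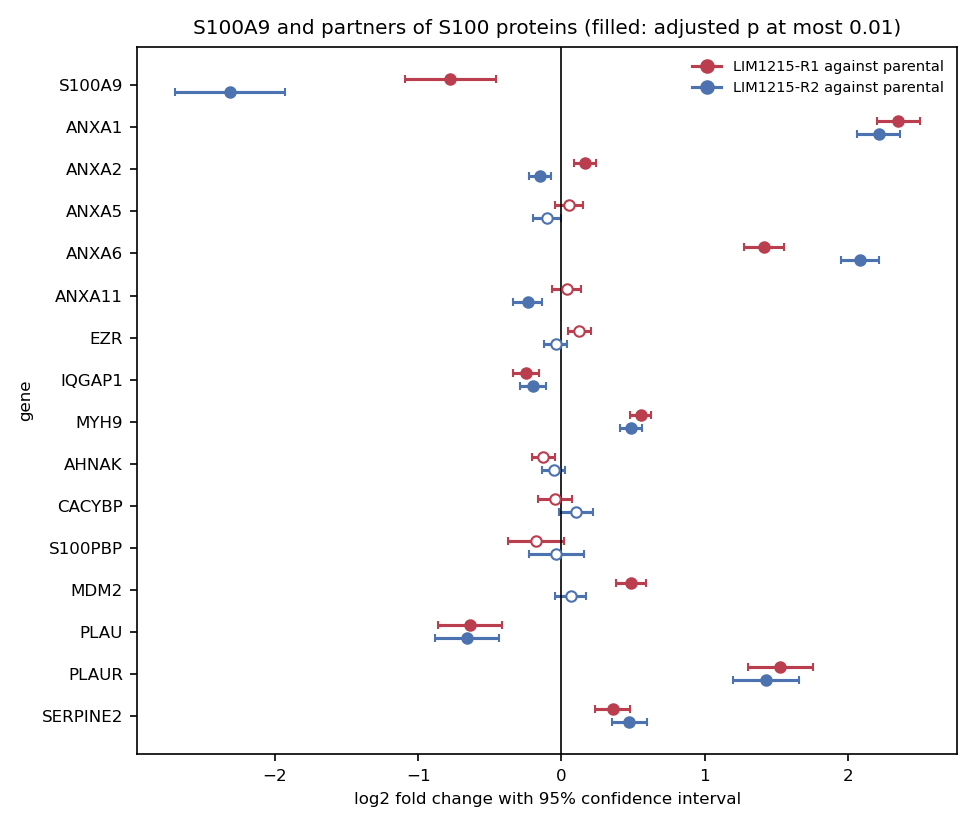
Log2 fold change against parental cells (horizontal axis) with 95% confidence intervals for S100A9 and for partners of S100 proteins in LIM1215-R1 and LIM1215-R2, filled where the adjusted p was at most 0.01. ANXA1, ANXA6 and PLAUR lie far to the right, S100A9 and PLAU lie left of 0, and ANXA2 lies close to 0 on either side.

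Among 7 cytoskeletal and nuclear partners, LIM1215-R1 had 2 higher and 1 lower, and LIM1215-R2 had 1 of each, with medians of -0.042 and -0.035. The shares over all genes were 14.0% higher and 13.4% lower in LIM1215-R1 and 12.3% and 11.6% in LIM1215-R2. MYH9, the myosin heavy chain bound by S100A4, was higher in both lines (log2 0.55 and 0.49, adjusted p = 1.64e-12 and 2.37e-11). MDM2, a ubiquitin ligase, was higher in LIM1215-R1 (log2 0.48, adjusted p = 1.46e-08), and IQGAP1, a scaffold protein, was lower in both lines (log2 -0.25 and -0.20, adjusted p = 7.52e-05 and 0.00101). Leaving out parental replicate 1 or LIM1215-R2 replicate 3 ended the call of IQGAP1 in LIM1215-R2 (adjusted p at most 0.0136). EZR, CACYBP and S100PBP, partners of S100P and S100A6, were not called against parental cells. Between the resistant lines, MDM2 and EZR were lower in LIM1215-R2 (log2 -0.42 and -0.16, adjusted p = 1.33e-06 and 0.00444), where 3.77% of all genes were. The EZR call was lost without any 1 library of these lines and with total counts as the scaling (adjusted p at most 0.0285).

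Of 6 genes for the cargo of S100A13 and for surface receptors of S100 proteins, 3 were tested. AGER, the receptor RAGE, and TLR4 had 0 counts in all 9 libraries, and FGF1, the cargo, had 1. BSG, a surface receptor on the same list, was abundant and was called in no comparison. It was at 1146 ± 44.2 CPM in parental cells, 1104 ± 42.8 in LIM1215-R1 and 1127 ± 11.6 in LIM1215-R2 (SD, n = 3). SYT1, a vesicle protein released with S100A13, was at 0.672 ± 0.332 CPM in parental cells and 1.56 ± 0.0450 in LIM1215-R1 (SD, n = 3; log2 1.15, adjusted p = 0.00691). That call was lost without any 1 of 5 libraries, which were parental replicate 2 or 3 and each LIM1215-R1 library. It was also lost with the DESeq2 Wald test and with only the 6 libraries of the comparison fitted, with an adjusted p of at most 0.042.

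EF-hand genes outside the S100 family moved in both directions. Of 32 listed, 29 were tested, with 6 higher and 7 lower calls for LIM1215-R1 and 5 and 7 for LIM1215-R2, and medians of 0.010 and -0.068. Among all genes 14.0% were higher and 13.4% lower for LIM1215-R1 and 12.3% and 11.6% for LIM1215-R2. CALB2, which encodes calretinin, went from 1.13 ± 0.0894 CPM to 16.4 ± 0.930 and 11.4 ± 1.00 (SD, n = 3; log2 3.86 and 3.34, adjusted p = 2.43e-17 and 1.91e-15). GCA, which encodes grancalcin, was lower in both lines (log2 -1.52 and -1.20, adjusted p = 3.89e-11 and 2.01e-09), and CALB1, the gene of calbindin, was lower in LIM1215-R2 (log2 -1.68, adjusted p = 5.44e-08). SRI (-0.46 and -0.61) and NUCB1 (-0.40 and -0.52) were lower and CALU (0.30 and 0.45) was higher in both lines on the log2 scale.

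The genes whose pattern over the 9 libraries was most like that of S100A4 and S100A2 were found among 12562 genes with a mean of at least 1 CPM, by the root mean square difference of log2 CPM after each gene's mean was removed. This is a description and has no test. Closest to S100A4 was PEG10, at a difference of 0.25, with 10.9 CPM in parental cells, 33.0 in LIM1215-R1 and 86.0 in LIM1215-R2. LINC02582 (0.34), FHL1 (0.36), AGMO (0.43) and SH3RF3 (0.44) came next. Closest to S100A2 was ZBTB20 at 0.20, with 4.94, 18.0 and 17.4 CPM, followed by LINC00941, AHNAK2, WHRN and ADAMTS9 at 0.22 to 0.24. Among the S100 genes themselves, S100A6 and S100A11 were the most alike (0.13), then S100A11 and S100A14 (0.15).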

How the data were processed

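Poly(A) RNA of 3 lines with 3 libraries each was sequenced as stranded paired reads. Per the labels and the study's methods, the authors aligned reads to hg38 with STAR and used HTSeq 0.9.1 for counting, by gene and on the reverse strand. The deposited values are raw counts per gene, with no normalization, and the gene annotation is not given in the sources used here. Libraries were grouped by the line in their titles. The filter kept genes whose counts summed to 10 or more. These were fitted with edgeR 4.0.16 (limma 3.58.1, R 4.3.3) in 1 quasi-likelihood model of the lines, after TMM scaling (factors 0.984 to 1.02). P-values were adjusted by Benjamini-Hochberg over all 19102 genes. The SE comes from the test statistic. Intervals and floors of single counts cover counting error only. DESeq2 1.42.0 served as an alternative. The other alternatives were filters, scalings, fits to the 6 libraries of a comparison, a replicate block and leaving out each library.

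The 9 members and all gene lists were chosen with earlier results of these data known, so that counts over a list are descriptions. The text names all members, and of each other list the called genes with at least 1 CPM in a line, up to 6 by size of change. Of genes within 300 kb of a member, up to 3 are named, and 5 genes are given for likeness to S100A4 and S100A2. Positions and promoter windows are those of RefSeq for GRCh38.p14, and all 9 genes matched. Protein sequences were not used here. Some genes of the lists are not reported here.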

Additional observations from a re-analysis of the deposited data

Results flagged for a closer look

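A difference between the resistant lines, taken from their direct test in edgeR's fit over all 19102 genes, was found for 4 of the 9 S100 genes. For S100A4 the log2 difference, LIM1215-R2 minus LIM1215-R1, was 1.79. S100P differed by -0.60, S100A14 by -0.26 and S100A16 by -0.24, all lower in LIM1215-R2. S100A4 therefore ran in the opposite direction to the other 3, although S100A4, S100P and S100A14 were all higher in both lines than in parental cells. Each line is 1 population, so differences in culture or harvest cannot be told apart from differences between the lines.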

How the results depend on the processing

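Of the 19 calls made for the 9 S100 genes over the 3 comparisons, 18 kept their direction and their side of the threshold under all 16 alternatives, and the other, S100A16 in LIM1215-R2 against LIM1215-R1, also lost its call with 10 counts required in every library (adjusted p = 0.0135) and with total counts as the scaling (0.0124). S100A16 in LIM1215-R2 against parental gained one without the filter (adjusted p = 0.00942) and with the replicate block (0.00579). The number of DEGs among the 9 in LIM1215-R1 was 3 at a log2 threshold of 1 and 0 with DESeq2's lfcShrink, against 1, where 7.31%, 2.06% and 5.14% of all genes tested met these rules. Only results near 0 changed sign. With total counts, S100A13 was at -0.024 in LIM1215-R1 and -0.012 in LIM1215-R2 and at 0.013 between the resistant lines, and S100A10 was at 0.010 between them. Leaving out 1 library at a time moved these from -0.040 to 0.039, from -0.029 to 0.056, from -0.034 to 0.045 and from -0.034 to 0.017. Libraries with the same replicate number did not consistently deviate together, with correlations from -0.11 to 0.27 over 9 pairs. The 18 pairs with different numbers gave -0.26 to 0.19, and 7 of 18 best matches were with the own number. These correlations cannot decide whether a replicate number marks a shared step, which the labels do not say. With the replicate block, calls over all genes went from 5222 to 5841 in LIM1215-R1, from 4554 to 5197 in LIM1215-R2 and from 1368 to 2044 between the resistant lines. Depth limits S100A2 and S100A4 most, at 12 to 31 counts in a parental library.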
